A study of Mus musculus with 24 samples.

Results

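Livers labelled as lacking both Atg5 and TSC1 in a hepatic double deletion (DKO) were compared with livers labelled as lacking Atg5 alone (Atg5 KO), to describe what the loss of Tsc1 adds where Atg5 is already lost. The members were chosen by their labelled genotype, 4 DKO and 4 Atg5 KO libraries, 8 of the 24 in the series. The study measured polyadenylated RNA of liver in 6 genotypes of 4 libraries each. The mice were C57BL/6J, 2 months old, and the Atg5 deletion is shared by both groups. Livers labelled TSC1 KO and wild type (WT), 4 libraries each, served as a second comparison that shares no library with the first and shows the loss of Tsc1 with Atg5 present. The other two genotypes, which add a deletion of p62 or of Nrf2 to the DKO, entered the fit only for its estimate of the spread. The labels call the deletions hepatic and name neither the Cre driver nor the sex, and whether the libraries are separate animals is not stated. The p-values therefore cover only the spread seen between these libraries, which may be technical.

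Tsc1 is a subunit of the complex that keeps the GTPase Rheb inactive and thereby restrains mTORC1, the kinase complex that drives protein, lipid and nucleotide synthesis when nutrients and growth factors are present. Atg5 is needed to extend the membrane that closes into an autophagosome, so its loss blocks the delivery of cytoplasm to lysosomes. In the liver, blocked autophagy is known for the build-up of the receptor p62 and for activity of the antioxidant factor NRF2, and sustained mTORC1 activity for stress signalling and for tumours that form late.

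The total count per library was 11707734 to 13057467 in Atg5 KO and 11403175 to 13007760 in DKO. Of the variance among the 2000 most variable genes of these 8 libraries, 85.3% lay on a first principal component that separated the groups, with scores of -73.6 to -61.6 in Atg5 KO and 57.3 to 76.9 in DKO. The second component (4.96%) set Atg5 KO library 2 apart from the other 7. DKO libraries 1 and 2 held counts for 26848 and 25884 genes and DKO libraries 3 and 4 for 23201 and 23424, so counts of called genes were also made with DKO libraries 3 and 4 alone. The share of counts in the top 20 genes was 16.9% to 22.2% in Atg5 KO and 13.3% to 13.7% in DKO. Levels are therefore given as CPM, counts scaled to a common library total, on library sizes scaled by the trimmed mean of M-values (TMM), as mean ± SD over the 4 libraries of a group, and changes as log2 fold changes ± SE. The median change over all 15851 genes tested was 0.04 with this scaling and 0.67 with total counts alone, and every direction below is relative to the scaled libraries.

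The gene counts did not show the Tsc1 deletion that the labels state, and for Atg5 they gave no single answer. Tsc1 (ENSMUSG00000026812, chr2:28641228-28691167, plus strand) stood at 27.5, 45.6, 28.9 and 28.2 CPM in the 4 Atg5 KO libraries and at 53.1, 24.9, 31.0 and 37.4 in the 4 DKO libraries, and did not pass the test (0.17 ± 0.19, edgeR adjusted p = 0.462). The groups overlapped. Atg5 (ENSMUSG00000038160, chr10:44268358-44364291, plus strand) stood at 46.7, 38.6, 46.7 and 40.1 CPM in Atg5 KO and 24.1, 25.1, 20.1 and 24.5 in DKO, and its whole-gene count was lower in DKO (-0.88 ± 0.12, edgeR adjusted p = 2.23e-06), with no overlap. Both groups are labelled as lacking Atg5, so this comparison cannot show that deletion. In WT, Atg5 stood at 31.4, 27.7, 25.5 and 22.5 CPM, below every Atg5 KO library. In TSC1 KO it stood at 88.6, 81.9, 79.8 and 84.5 CPM, above every Atg5 KO library and every DKO library. DKO differs from TSC1 KO by the labelled Atg5 deletion, and that contrast was not tested. A whole-gene count also takes in exons that a deletion leaves in place, so DKO and Atg5 KO name the libraries as labelled. Sqstm1, which encodes p62, went from 824 ± 142 in Atg5 KO to 961 ± 157 CPM in DKO, and Nfe2l2, which encodes NRF2, from 113 ± 17.8 in Atg5 KO to 113 ± 32.7 CPM in DKO, and neither passed the test. With total counts alone Tsc1, Sqstm1 and Nfe2l2 passed upward (0.82, 0.83 and 0.62), and the fall of Atg5 did not pass (-0.26).

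Over the whole transcriptome the groups were far apart. Of the genes tested, 8949 passed the test (edgeR's quasi-likelihood test, Benjamini-Hochberg adjusted p under 0.05), 4627 of them higher in DKO and 4322 lower. That is a background of 29.2% called higher and 27.3% called lower, against which the counts of each gene group below are to be read. In 51.8% of genes, all 4 libraries of one group stood above all 4 of the other (27.1% higher in DKO, 24.6% lower). With total counts alone, 57.8% of genes were called higher and 12.3% lower. The changes were large: 2604 genes rose and 2220 fell at least 2-fold, 1125 rose and 940 fell at least 4-fold, and 190 rose and 204 fell at least 16-fold. Where Atg5 was present (TSC1 KO against WT), 16.4% of genes passed, 8.79% higher and 7.6% lower. Fewer genes passed there without WT library 2 (1724 in all, 768 of them lower), and 647 and 766 were lower without WT library 1 or TSC1 KO library 2, against 1205 with all libraries. Of the genes that rose in DKO against Atg5 KO, 823 also rose in TSC1 KO against WT, which is 17.8% of the first list and 59.1% of the second. Of those that fell, 657 also fell there, 15.2% of the first list and 54.5% of the second. A further 94 genes rose in the first comparison and fell in the second, and 202 did the opposite. The change in DKO against Atg5 KO was also tested against the change in TSC1 KO against WT, as a difference of the effects of Tsc1 loss. That difference passed for 34.8% of genes, above the TSC1 KO effect for 15.5% and below it for 19.3%.

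**Figure D1:**
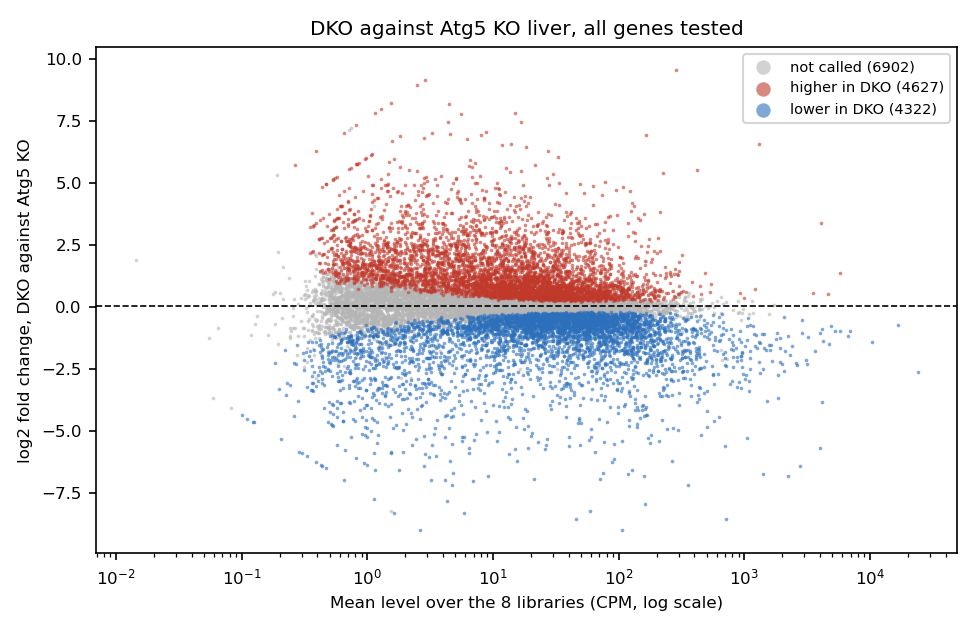
Log2 fold change of DKO against Atg5 KO (vertical axis) of the 15851 genes tested, by mean level over the 8 libraries (horizontal axis, CPM, log scale). Genes called higher are red, genes called lower blue and the rest grey, and the dashed line marks the median change of 0.04. Of the 100 most abundant genes, 83 were called lower and 8 higher.

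The most abundant liver transcripts moved mainly in one direction. Of the 100 genes with the highest mean level over the 8 libraries, 83 were lower in DKO, 8 were higher and 9 did not pass. The 8, named here after their values were seen, were Clu, Selenop, Spp1, Fth1, Gpx3, Malat1, Psap and Ctsl. Of these, 3 lost the call when single libraries were left out: Selenop without Atg5 KO library 1 or 3 or DKO library 4 (edgeR adjusted p up to 0.0548), Fth1 without Atg5 KO or DKO library 1 or 2 (up to 0.141), and Psap without Atg5 KO library 1 or 2 or DKO library 1, 2 or 3 (up to 0.224). Gpx3, a secreted glutathione peroxidase, stood at 33.2, 23.2, 18.2 and 35.7 CPM in Atg5 KO and 2498, 2444, 2343 and 3084 in DKO (6.55 ± 0.34, edgeR adjusted p = 1.35e-11). Every DKO library stood above every Atg5 KO library. Its change in TSC1 KO against WT was 5.98 ± 0.34, edgeR adjusted p = 4.71e-11, and the difference between the changes was 0.58 ± 0.39, edgeR adjusted p = 0.277. Clu, the chaperone clusterin, went from 3215 ± 699.7 in Atg5 KO to 8335 ± 787 CPM in DKO (1.37 ± 0.25, edgeR adjusted p = 5.34e-05).

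Genes of bile duct cells and of the ductular reaction rose. Of 37 such genes tested, 32 were higher in DKO, 1 was lower and the median log2 change was 1.99. Krt7 (ENSMUSG00000023039, chr15:101411043-101430313, plus strand), a keratin of biliary epithelium, stood at 10.4, 5.30, 3.74 and 5.51 CPM in Atg5 KO and 149, 131, 149.7 and 135 in DKO (4.49 ± 0.30, edgeR adjusted p = 1.22e-10). The lowest DKO library was far above the highest Atg5 KO library. Spp1 (ENSMUSG00000029304, chr5:104435118-104441050, plus strand), which encodes the secreted matrix protein osteopontin, stood at 980.0, 374, 571 and 909 and 7679.7, 6557, 9305 and 6047 CPM (3.38 ± 0.29, edgeR adjusted p = 2.09e-09), again with no overlap. The tight junction genes Cldn4 and Cldn7 rose from 4.63 ± 1.71 in Atg5 KO to 149.996 ± 35.7 CPM in DKO (5.01 ± 0.36) and from 4.87 ± 1.52 in Atg5 KO to 48.2 ± 6.19 CPM in DKO (3.30 ± 0.31). Sox4, a transcription factor of ductal and progenitor cells, rose from 12.1 ± 3.39 in Atg5 KO to 86.3 ± 10.8 CPM in DKO (2.83 ± 0.25). The member that fell was Onecut1, a factor of both hepatocyte and duct development, from 11.2 ± 6.61 in Atg5 KO to 3.43 ± 1.26 CPM in DKO (-1.70 ± 0.57, edgeR adjusted p = 0.0156). Its libraries overlapped, and without Atg5 KO library 1 the adjusted p was 0.0511, and total counts alone did not give the call (-1.13). Krt8 and Krt18, keratins that hepatocytes also make, did not pass (0.12 ± 0.23 and 0.39 ± 0.20), and did with total counts alone (0.71 and 0.996). Krt18 also passed without Atg5 KO library 4 (0.54, edgeR adjusted p = 0.0355).

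For the ductular list the median change was of similar size with and without Atg5. For TSC1 KO against WT, 22 of the 37 were higher and 0 lower, with a median of 1.73, and the difference passed for 8 upward and 1 downward. Spp1 changed by 3.37 ± 0.29 in TSC1 KO, and the difference was 0.01 ± 0.38, edgeR adjusted p = 0.985. Cldn4 held 3 counts over the 4 WT libraries and 95 over the 4 TSC1 KO libraries, a ratio of 27.7 with a 95% counting interval of 9.19 to 137. Krt7 did differ, with 2.58 ± 0.37 in TSC1 KO and a difference of 1.92 ± 0.50, edgeR adjusted p = 0.00475. A p that misses the threshold does not show that the effects are the same size. In whole liver, more cells of a type and more RNA per cell cannot be told apart.

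**Figure D2:**
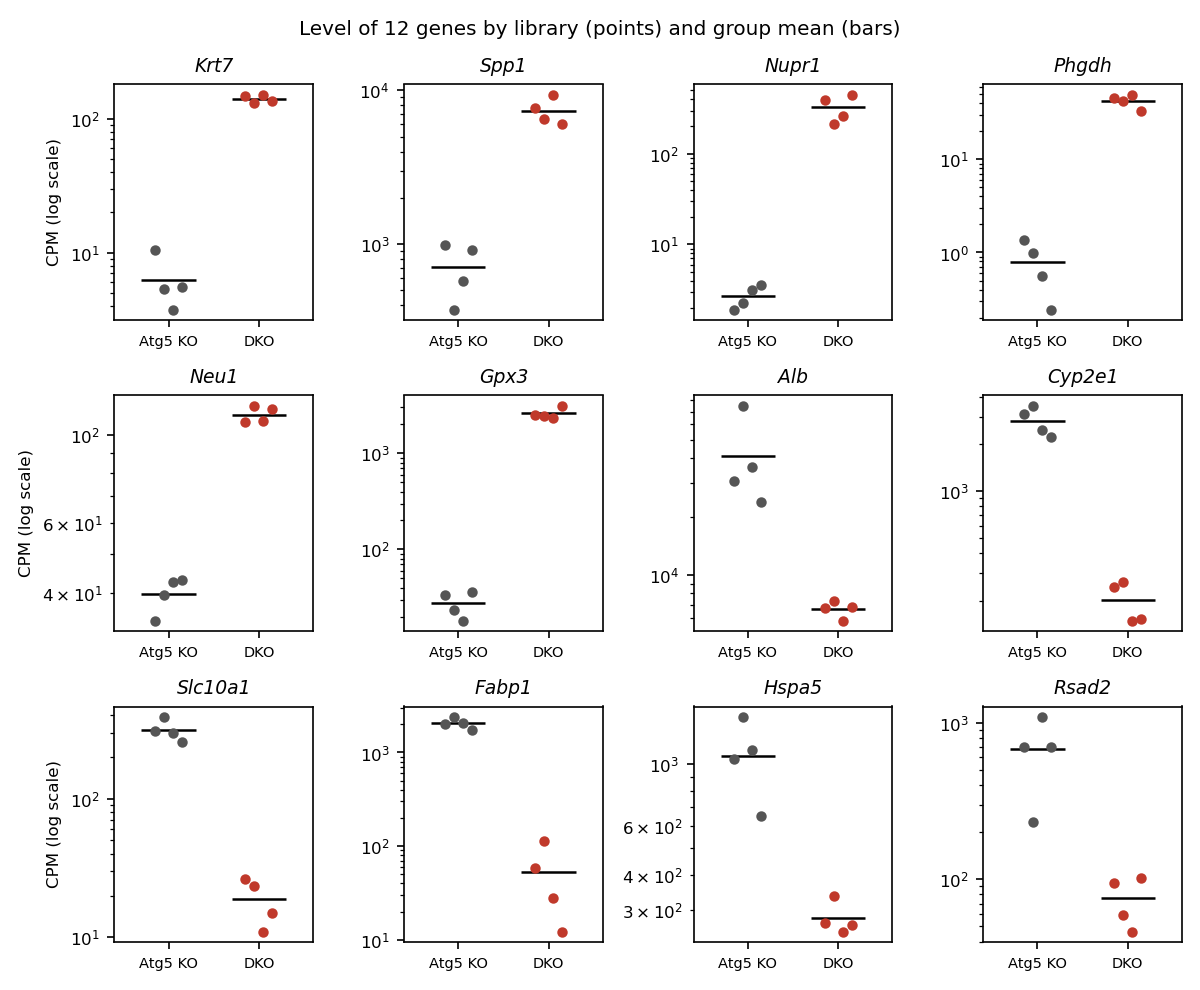
Level of 12 genes (CPM, log scale) in each Atg5 KO and DKO library. Each point is a library and each bar a group mean; Krt7, Spp1, Nupr1, Phgdh, Neu1 and Gpx3 were higher in DKO, and Alb, Cyp2e1, Slc10a1, Fabp1, Hspa5 and Rsad2 lower, with no overlap of the groups in any of the 12.

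Genes of the growth regulators YAP and TAZ, counted together with their partners and targets, mostly rose as well. Of 24 tested, 18 rose and 0 fell, with a median of 1.26. Their DNA-binding partners Tead2 and Tead1 went from 1.502 ± 0.491 in Atg5 KO to 25.8 ± 5.21 CPM in DKO (4.10 ± 0.28, edgeR adjusted p = 1.20e-10) and from 22.4 ± 4.77 in Atg5 KO to 82.3 ± 13.7 CPM in DKO (1.88 ± 0.21). Ankrd1, a classic target, stood at 12.96, 5.57, 5.97 and 5.19 CPM in Atg5 KO and 112, 246, 238 and 243 in DKO (4.81 ± 0.51, edgeR adjusted p = 1.08e-07). Its DKO libraries differed among themselves but lay above all Atg5 KO libraries. Ccn2, another target and a matrix-inducing growth factor, rose from 16.001 ± 3.51 in Atg5 KO to 138 ± 63.3 CPM in DKO (3.11 ± 0.37), and Myof from 15.3 ± 4.19 in Atg5 KO to 103 ± 14.7 CPM in DKO (2.75 ± 0.30). Yap1 itself did not pass (-0.28 ± 0.12, edgeR adjusted p = 0.0518). It passed downward without Atg5 KO library 2 (-0.34, edgeR adjusted p = 0.0425) or DKO library 4 (-0.37, edgeR adjusted p = 0.0181), and upward with total counts alone (0.34). In TSC1 KO against WT 5 of these genes were higher and 3 lower, and the difference passed upward for 11 and downward for 0.

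Of 24 genes known from fetal liver and liver tumours, 15 rose and 3 fell (median 1.35; 17 rose and 1 fell with total counts alone). H19 (ENSMUSG00000000031, chr7:142575529-142578143, minus strand), an imprinted non-coding RNA of fetal liver, stood at 0.686, 1.17, 0.398 and 0.811 CPM in Atg5 KO and 520.0, 712, 777 and 269.8 in DKO (9.54 ± 1.10, edgeR adjusted p = 4.89e-07). No library of either group came near the other group. Peg3, another imprinted gene, stood at 9.07, 9.17, 10.8 and 12.3 and 243, 314, 358 and 835 CPM (5.40 ± 0.39, edgeR adjusted p = 5.26e-10), with a wide spread within DKO. Igf2bp2, an RNA-binding protein of fetal tissue, rose from 1.49 ± 0.639 in Atg5 KO to 18.2 ± 4.15 CPM in DKO (3.60 ± 0.38), and changed by -0.83 ± 0.42 in TSC1 KO (edgeR adjusted p = 0.188), a difference of 4.43 ± 0.56, edgeR adjusted p = 2.71e-06. The guidance receptor Robo1 fell from 24.6 ± 3.45 in Atg5 KO to 3.30 ± 0.672 CPM in DKO (-2.90 ± 0.30). Without DKO library 3 the count lower was 1.

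Transcripts of proteins that hepatocytes secrete fell nearly throughout. Of 35 tested, 34 were lower in DKO and 0 higher, with a median of -2.29, and 34 had all 4 DKO libraries below all 4 Atg5 KO libraries. Alb (ENSMUSG00000029368, chr5:90460897-90476602, plus strand), which encodes albumin, stood at 30593, 74576, 36335 and 23947 CPM in Atg5 KO and 6690.0, 7339, 5783 and 6806 in DKO (-2.64 ± 0.28, edgeR adjusted p = 4.12e-08). Atg5 KO library 2 was the highest of the 8 and the DKO libraries were close together. The coagulation factor gene F9 fell from 224 ± 24.4 in Atg5 KO to 29.4 ± 6.31 CPM in DKO (-2.93 ± 0.19) and Plg, which encodes plasminogen, from 1872 ± 455 in Atg5 KO to 324 ± 38.4 CPM in DKO (-2.53 ± 0.21). Pon1, a lipoprotein-bound esterase, fell from 465 ± 202 in Atg5 KO to 15.1 ± 8.58 CPM in DKO (-4.94 ± 0.39). Trf, which encodes transferrin, did not pass (-0.28 ± 0.27, edgeR adjusted p = 0.41), and fell with DKO libraries 3 and 4 alone (-0.84, adjusted p = 0.032). Where Atg5 was present (TSC1 KO against WT), 8 of these genes were lower and 1 higher, with a median of -0.22. The difference passed downward for 26 of 35 and upward for 0. For Alb the change in TSC1 KO was -0.47 ± 0.26 (edgeR adjusted p = 0.237) and the difference -2.17 ± 0.37, edgeR adjusted p = 9.76e-05.

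Transcription factors that define hepatocytes were among the genes that fell. Of 24 tested, 17 fell and 3 rose (median -1.09). With total counts alone 11 fell and 6 rose. Cebpa fell from 350.1 ± 42.8 in Atg5 KO to 130.2 ± 17.9 CPM in DKO (-1.43 ± 0.14, edgeR adjusted p = 1.17e-08), Hnf4a from 564 ± 26.3 in Atg5 KO to 239 ± 27.0 CPM in DKO (-1.24 ± 0.25, edgeR adjusted p = 1.91e-04) and Ppara, the receptor that drives fatty acid oxidation, from 30.1 ± 5.95 in Atg5 KO to 7.61 ± 2.84 CPM in DKO (-1.98 ± 0.27, edgeR adjusted p = 1.68e-06). Nr1h3, which encodes the oxysterol receptor LXR alpha, fell from 112 ± 5.50 in Atg5 KO to 20.5 ± 6.81 CPM in DKO (-2.44 ± 0.18, edgeR adjusted p = 2.37e-10). In TSC1 KO against WT 5 of the 24 were lower and 0 higher (median -0.28). The difference passed downward for 9 and upward for 3. Hnf4a stood at 902, 963, 922 and 837 CPM in WT and 464, 546, 560 and 553 in TSC1 KO, with no overlap.

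Genes of both zones of the lobule fell. Of 22 genes of hepatocytes near the central vein 18 fell and 0 rose (median -2.53; 2 rose with total counts alone), and of 22 periportal and urea cycle genes 20 fell and 1 rose (median -1.88). Cyp2e1 (ENSMUSG00000025479, chr7:140763739-140774987, plus strand), the pericentral enzyme that oxidises ethanol, stood at 3111, 3499, 2466 and 2219.9 CPM in Atg5 KO and 245, 262, 149 and 153 in DKO (-3.80 ± 0.27, edgeR adjusted p = 1.56e-10). The groups did not overlap. Rhbg, a pericentral ammonium transporter, held 264 counts over the 4 Atg5 KO libraries and 0 in DKO, at least 132-fold lower if DKO is set at 3 counts in all. On the periportal side Otc, a urea cycle enzyme, fell from 485 ± 116 in Atg5 KO to 80.6 ± 27.5 CPM in DKO (-2.59 ± 0.22) and Cps1, the entry enzyme of that cycle, from 2715 ± 1717 in Atg5 KO to 596 ± 163 CPM in DKO (-2.19 ± 0.34). The periportal gene that rose was Cdh1, which encodes the epithelial adhesion protein E-cadherin that duct cells also carry, from 134 ± 12.8 in Atg5 KO to 342 ± 35.2 CPM in DKO (1.35 ± 0.22). For TSC1 KO against WT, the pericentral genes gave 0 higher and 2 lower, and the periportal genes 4 higher and 0 lower. The difference passed downward for 16 and 20 of them.

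Enzymes of drug metabolism, bile acid handling and male-biased growth hormone response fell in the same samples. Of 31 cytochrome P450 and conjugation genes 27 fell and 2 rose (median -2.37). The count that rose was 0 without Atg5 KO library 4 or DKO library 4, and 1 without Atg5 KO library 1, 2 or 3, without DKO library 1, or with DKO libraries 3 and 4 alone. Of 27 bile acid genes 21 fell and 1 rose (median -2.05; 2 rose without Atg5 KO library 2, and 2 with total counts alone), and of 34 growth hormone and sex-dependent genes 19 fell and 5 rose (median -1.93). Cyp3a11, the main drug-oxidising P450 of mouse liver, fell from 3431 ± 1638 in Atg5 KO to 268 ± 150.5 CPM in DKO (-3.68 ± 0.40, edgeR adjusted p = 6.06e-08), and Ugt2b1, a glucuronosyltransferase, from 705 ± 68.6 in Atg5 KO to 4.85 ± 2.21 CPM in DKO (-7.19 ± 0.57, edgeR adjusted p = 1.56e-09). Slc10a1, the bile acid uptake transporter of the sinusoidal membrane, stood at 308, 387, 297 and 255 CPM in Atg5 KO and 26.3, 23.3, 10.99 and 15.1 in DKO (-4.04 ± 0.30, edgeR adjusted p = 3.52e-10). All 4 DKO libraries were far below all 4 Atg5 KO libraries, while in TSC1 KO the change was 0.35 ± 0.26 (edgeR adjusted p = 0.398). Mup20, a urinary protein of male mice, stood at 6813, 5513, 4793 and 4875 and 96.3, 118, 26.2 and 18.5 CPM (-6.41 ± 0.76, edgeR adjusted p = 3.84e-07). Igf1 and Ghr, a growth hormone target and its receptor, fell from 452 ± 165 in Atg5 KO to 129 ± 21.9 CPM in DKO (-1.81 ± 0.20) and from 351 ± 148 in Atg5 KO to 80.7 ± 4.61 CPM in DKO (-2.12 ± 0.24). Igfbp3, which binds Igf1 in plasma, rose from 21.2 ± 13.7 in Atg5 KO to 218 ± 74.2 CPM in DKO (3.36 ± 0.48). The 5 that rose also include Cux2, which is known as female-biased in mouse liver. Without Atg5 KO library 2 or 4, without DKO library 1 or 4, or with DKO libraries 3 and 4 alone, that count of 5 became 3. All 8 libraries held counts of 4 Y-linked genes and at most 6 counts of Xist. Mup, Ugt2b, Cyp and Ces genes have near-identical copies among which the authors' counting could split reads, so their single values are uncertain.

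For these lists the effects of Tsc1 loss without and with Atg5 were also tested against each other. In TSC1 KO against WT 3 P450 and conjugation genes were higher and 0 lower, and 2 bile acid genes higher and 1 lower. The difference passed downward for 26 of 31 and 20 of 27, where the background was 19.3%.

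**Figure D3:**
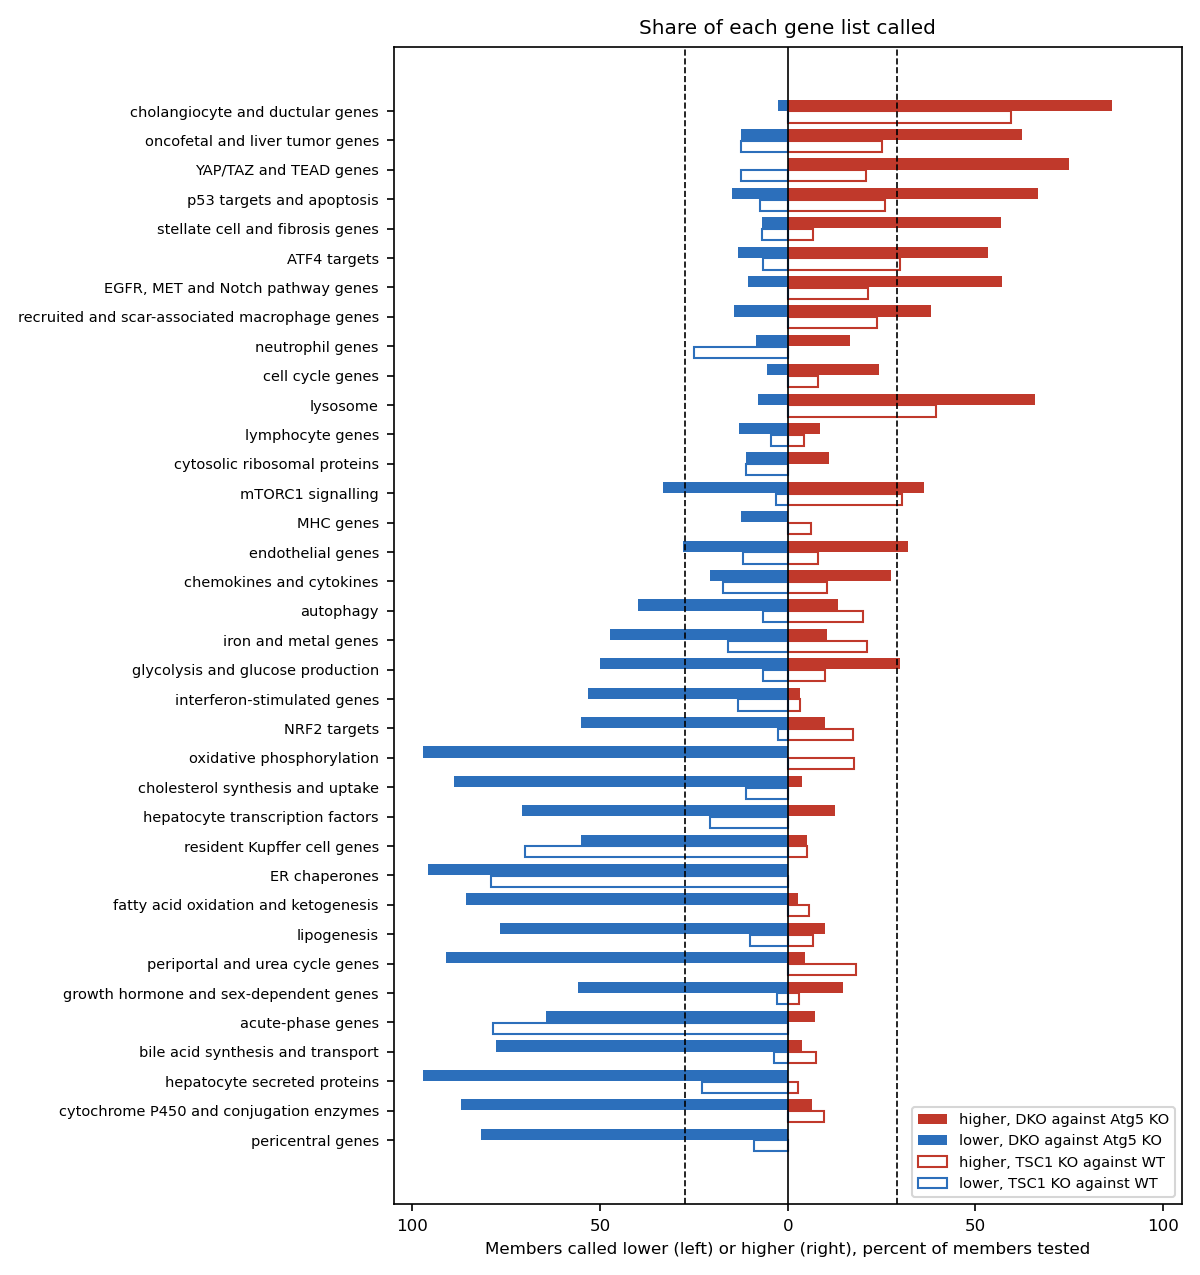
Share of each gene list called higher (right, red) and lower (left, blue) in DKO against Atg5 KO (filled bars) and in TSC1 KO against WT (open bars), as percent of the members tested. Dashed lines give the shares over all 15851 genes for DKO against Atg5 KO, 29.2% higher and 27.3% lower; the ductular list was called higher in both comparisons, and the hepatocyte, lipid and oxidative phosphorylation lists were called lower mainly in the first.

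Lipid and mitochondrial genes also fell. Of 30 genes of fatty acid and triglyceride synthesis 23 fell and 3 rose (median -1.70). Scd1, the desaturase that makes oleate, stood at 6956, 13600.4, 5957 and 4343 CPM in Atg5 KO and 836, 610.2, 462 and 256 in DKO (-3.83 ± 0.41, edgeR adjusted p = 5.23e-08). The groups did not overlap, although Atg5 KO itself spread widely. Fasn fell from 635 ± 59.1 in Atg5 KO to 130.1 ± 22.2 CPM in DKO (-2.29 ± 0.32), Acaca from 127 ± 11.2 in Atg5 KO to 42.6 ± 3.06 CPM in DKO (-1.58 ± 0.13) and Elovl6 from 101 ± 18.7 in Atg5 KO to 12.4 ± 3.21 CPM in DKO (-3.03 ± 0.21). The exceptions were Scd2, a desaturase of other tissues, from 149 ± 21.6 in Atg5 KO to 365 ± 112 CPM in DKO (1.30 ± 0.33), Plin4 and Cidea, both lipid droplet proteins. Of 27 cholesterol genes 24 fell and 1 rose, with 13 lower when total counts alone were used. The count that rose was 2 with total counts alone or without Atg5 KO library 4. Hmgcs1 fell from 526 ± 114 in Atg5 KO to 185 ± 21.9 CPM in DKO (-1.51 ± 0.30, edgeR adjusted p = 1.97e-04), while Srebf2, the factor that drives the pathway, rose from 68.6 ± 8.32 in Atg5 KO to 94.3 ± 21.04 CPM in DKO (0.46 ± 0.14, edgeR adjusted p = 0.0092). Its libraries overlapped, and the adjusted p was 0.0568 without Atg5 KO library 2 and 0.0507 without DKO library 3.

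Fatty acid oxidation and oxidative phosphorylation fell in the same direction. Of 35 genes of oxidation and ketone production 30 fell and 1 rose (median -1.64). Fabp1, the fatty acid carrier of liver, stood at 2009, 2379, 2049.8 and 1749 CPM in Atg5 KO and 58.0, 113, 27.7 and 12.2 in DKO (-5.28 ± 0.47, edgeR adjusted p = 4.50e-09), with no overlap. The gene that rose was Ppargc1a, a coactivator of mitochondrial genes, from 11.5 ± 4.48 in Atg5 KO to 19.04 ± 6.34 CPM in DKO (0.73 ± 0.26, edgeR adjusted p = 0.0208). Its libraries overlapped, and the adjusted p rose to 0.0839, 0.0753 and 0.137 without Atg5 KO library 3, Atg5 KO library 4 and DKO library 4. Of 34 nuclear genes of the respiratory chain and ATP synthase 33 fell and 0 rose (median -0.89). With total counts alone 17 fell and 1 rose. Sdha, a subunit of succinate dehydrogenase, stood at 449.7, 576, 517 and 387 CPM in Atg5 KO and 189, 195, 186 and 173 in DKO (-1.38 ± 0.16, edgeR adjusted p = 1.44e-07). The DKO libraries were close together and all lower. Where Atg5 was present (TSC1 KO against WT), 6 of these genes rose and 0 fell, and the difference passed downward for 34 of 34. Transcripts of the mitochondrial genome held 4.24% to 6.32% of all counts in the Atg5 KO libraries and 2.32% to 3.78% in the DKO libraries, with no overlap, and the part of this share in the results was not tested.

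Genes of glucose metabolism fell more often than the 27.3% of all genes, and rose about as often as the 29.2%. Of 30 genes 15 fell and 9 rose, with a median of -0.56 that became 0.03 with total counts alone, where 8 fell and 12 rose. Pcx, the carboxylase that starts glucose production from pyruvate, fell from 424 ± 34.1 in Atg5 KO to 97.7 ± 9.90 CPM in DKO (-2.12 ± 0.18). Pck1, the gluconeogenic carboxykinase, fell from 1809.7 ± 1015 in Atg5 KO to 608 ± 259 CPM in DKO (-1.57 ± 0.36). Pfkp, the phosphofructokinase of non-hepatic cells, rose from 12.3 ± 1.11 in Atg5 KO to 50.6 ± 2.97 CPM in DKO (2.04 ± 0.21, edgeR adjusted p = 3.08e-08), Ldhb, a lactate dehydrogenase, from 4.60 ± 1.77 in Atg5 KO to 24.7 ± 3.88 CPM in DKO (2.42 ± 0.30) and Hif1a from 45.5 ± 3.41 in Atg5 KO to 73.7 ± 10.98 CPM in DKO (0.70 ± 0.11).

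Lysosomal genes rose. Of 38 tested 25 were higher in DKO and 3 lower (median 0.40), and with DKO libraries 3 and 4 alone 16 were higher and 4 lower. By total counts alone 35 were higher and 0 lower. For TSC1 KO against WT, 15 were higher and 0 lower. The difference between the effects passed upward for 3 of the 38 and downward for 6, with a median of -0.02. Neu1 (ENSMUSG00000007038, chr17:34931253-34935953, plus strand), the lysosomal sialidase, stood at 34.003, 39.5, 42.6 and 43.0 CPM in Atg5 KO and 108, 118, 108 and 116 in DKO (1.4996 ± 0.10, edgeR adjusted p = 1.06e-10). The groups did not overlap, and the change in TSC1 KO was 1.03 ± 0.10, with a difference of 0.47 ± 0.14, edgeR adjusted p = 0.0128. Cd63, a membrane protein of late endosomes, rose from 28.9 ± 9.57 in Atg5 KO to 208 ± 38.7 CPM in DKO (2.85 ± 0.27), Glb1, a galactosidase, from 17.9 ± 2.06 in Atg5 KO to 30.05 ± 3.48 CPM in DKO (0.74 ± 0.13) and Atp6ap1, a subunit of the proton pump, from 95.7 ± 8.35 in Atg5 KO to 136 ± 5.54 CPM in DKO (0.50 ± 0.10). The protease genes went in several directions. Ctsl rose from 751 ± 116 in Atg5 KO to 1106 ± 174 CPM in DKO (0.56 ± 0.18, edgeR adjusted p = 0.0105). Its libraries overlapped, and with DKO libraries 3 and 4 alone the adjusted p was 0.0691. Ctsh fell from 251 ± 34.8 in Atg5 KO to 153 ± 14.2 CPM in DKO (-0.72 ± 0.14), a call that total counts alone did not give. Lamp1, a membrane protein that lines the lysosome, did not pass (-0.25 ± 0.16, edgeR adjusted p = 0.191), and was called higher with total counts alone (0.37).

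Genes of mTORC1 signalling itself gave no common direction. Of 33 tested 12 rose and 11 fell, which became 21 and 0 with total counts alone. With DKO libraries 3 and 4 alone 7 fell. The lysosomal Rag GTPases Rragc and Rragd, which bring mTORC1 to the lysosome, rose from 54.6 ± 1.93 in Atg5 KO to 95.3 ± 11.5 CPM in DKO (0.80 ± 0.11, edgeR adjusted p = 2.38e-06) and from 49.3 ± 23.2 in Atg5 KO to 165 ± 15.7 CPM in DKO (1.74 ± 0.30, edgeR adjusted p = 4.41e-05). For Rragd the change in TSC1 KO against WT was larger, 4.54 ± 0.40, and the difference was -2.79 ± 0.49, edgeR adjusted p = 1.61e-04. In Atg5 KO against WT, which shares the Atg5 KO libraries, Rragd changed by 4.82 ± 0.40, edgeR adjusted p = 3.57e-08. The nutrient sensors Sesn1, Sesn2 and Sesn3 rose, Sesn3 from 40.3 ± 5.87 in Atg5 KO to 163 ± 33.4 CPM in DKO (2.01 ± 0.18, edgeR adjusted p = 3.04e-09). Grb10, an adaptor that mTORC1 stabilises, rose from 9.44 ± 2.81 in Atg5 KO to 84.9 ± 20.8 CPM in DKO (3.16 ± 0.37, edgeR adjusted p = 3.78e-07). Mtor and Rps6kb1, the kinase and its substrate, fell by 0.57 and 0.50 on the log2 scale, but with total counts alone they changed by 0.04 and 0.12 and did not pass. Eif4ebp1 did not pass.

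Genes of the autophagy machinery gave 4 higher and 12 lower of 30, and 18 higher and 1 lower with total counts alone, where their median turned from -0.11 to 0.51. Map1lc3b, which encodes the protein that Atg5 helps to attach to membranes, rose from 136 ± 14.8 in Atg5 KO to 269 ± 25.2 CPM in DKO (0.99 ± 0.17, edgeR adjusted p = 3.18e-05), and Wipi1, a membrane sensor, from 21.9 ± 4.38 in Atg5 KO to 47.6 ± 5.84 CPM in DKO (1.12 ± 0.15). Atg3, the enzyme of that attachment, fell from 77.9 ± 15.2 in Atg5 KO to 36.9 ± 3.16 CPM in DKO (-1.08 ± 0.11, edgeR adjusted p = 2.38e-08). Gabarapl1, a relative of Map1lc3b, did not pass (0.43 ± 0.20, edgeR adjusted p = 0.0707), did so upward without Atg5 KO library 2 or with total counts alone, and changed by 1.72 ± 0.20, edgeR adjusted p = 6.28e-06 in TSC1 KO.

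Promoters of lysosomal genes were searched for the E-box CACGTG, the core of the element that TFEB and TFE3, the lysosomal transcription factors held in the cytoplasm by mTORC1, are known to bind. Sequences are from RefSeq promoter windows on GRCm38.p6 that run from 250 bases before to 50 bases after the start, read on both strands. The window was found for 38 lysosomal genes in 28 cases. CACGTG was in 46.4% of those 28, in 50% of the 20 called higher and in 8.09% of all 27025 genes of the table. The longer palindrome TCACGTGA, which contains it, was in 25% of the 28 and in 1.13% of all genes. Among genes of mTORC1 signalling CACGTG was in 7 of 30, in 3 of the 11 called higher and in 3 of the 10 called lower. Of the 13 lysosomal genes with CACGTG, 10 were called higher and 1 lower. Lamp1, which did not pass, held 4 copies. Gaa, which fell (-0.41 ± 0.10, edgeR adjusted p = 0.00181) but rose with total counts alone (0.23), held 1. The 250 bases before the start are printed for the lysosomal genes Glb1 and Naglu, chosen after their values were seen because they had the smallest adjusted p among those called higher with the letters, and for Rragc, 5′ to 3′ on the strand of the gene, with CACGTG in capitals. Naglu, a lysosomal glucosaminidase, rose from 29.6 ± 0.473 in Atg5 KO to 44.9 ± 3.21 CPM in DKO (0.60 ± 0.12, edgeR adjusted p = 2.00e-04). Rragc rose, and the mTORC1 genes with CACGTG that fell, Rheb, Lamtor4 and Tbc1d7, are not printed. The first base of CACGTG lay at -48 in Glb1, -73 in Naglu and -112 in Rragc, counted from the start. These matches describe letters and say nothing of binding.
Glb1 (chr9:114400828-114401077, plus strand): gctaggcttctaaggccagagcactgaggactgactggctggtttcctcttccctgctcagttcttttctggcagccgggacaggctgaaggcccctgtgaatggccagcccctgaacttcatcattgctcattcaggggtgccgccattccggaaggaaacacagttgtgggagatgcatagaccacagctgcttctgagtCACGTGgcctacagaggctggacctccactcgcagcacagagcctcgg
Naglu (chr11:101069844-101070093, plus strand): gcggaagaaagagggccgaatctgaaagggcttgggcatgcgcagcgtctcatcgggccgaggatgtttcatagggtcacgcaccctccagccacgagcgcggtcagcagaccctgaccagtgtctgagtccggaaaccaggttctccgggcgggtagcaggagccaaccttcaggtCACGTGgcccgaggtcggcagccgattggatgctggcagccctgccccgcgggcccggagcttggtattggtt
Rragc (chr4:123917183-123917432, plus strand): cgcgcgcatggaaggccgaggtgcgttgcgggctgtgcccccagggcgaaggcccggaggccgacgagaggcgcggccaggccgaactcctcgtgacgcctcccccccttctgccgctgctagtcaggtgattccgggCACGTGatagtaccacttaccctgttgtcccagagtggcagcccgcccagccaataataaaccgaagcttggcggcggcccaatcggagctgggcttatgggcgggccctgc

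Targets of NRF2 fell as a list, with exceptions. Of 40 tested 22 were lower in DKO and 4 higher (median -0.77), whereas with total counts alone 5 were lower and 7 higher. Gstm3, a glutathione transferase, stood at 2154, 1021, 3569.8 and 2847 CPM in Atg5 KO, 476, 750.4, 323 and 134 in DKO and 68.9, 62.4, 71.6 and 52.1 in WT (-2.51 ± 0.52, edgeR adjusted p = 3.44e-04 for DKO against Atg5 KO). The Atg5 KO libraries were all above the DKO libraries, and against WT the Atg5 KO change was 5.23 ± 0.60. Gclm, a subunit of the enzyme that starts glutathione synthesis, fell from 362 ± 45.2 in Atg5 KO to 199.5 ± 27.5 CPM in DKO (-0.86 ± 0.13, edgeR adjusted p = 8.53e-06), a call that total counts alone did not give (-0.25). Gstm1 fell from 9099 ± 3010.3 in Atg5 KO to 4657 ± 1081 CPM in DKO (-0.97 ± 0.32, edgeR adjusted p = 0.0142). Its libraries overlapped, and without Atg5 KO library 3 the adjusted p was 0.0542, and total counts alone did not give the call (-0.37). Gstm genes are near-identical copies, so single values are uncertain. The members that rose were G6pdx, the first enzyme of the pentose phosphate pathway, from 24.02 ± 9.36 in Atg5 KO to 103 ± 12.3 CPM in DKO (2.099 ± 0.28, edgeR adjusted p = 1.86e-06), Akr1b8, an aldo-keto reductase, from 4.23 ± 1.08 in Atg5 KO to 27.6 ± 3.56 CPM in DKO (2.70 ± 0.29), Abcc1, an export pump, from 18.3 ± 8.13 in Atg5 KO to 54.8 ± 6.22 CPM in DKO (1.58 ± 0.26) and Fth1, a ferritin subunit (0.54 ± 0.20), whose calls without single libraries are given above. In TSC1 KO against WT 7 of the list rose and 1 fell, and the difference passed downward for 23 and upward for 2. The other comparison that uses the Atg5 KO libraries, against WT, gave a median of 1.42 for the list.

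The antioxidant response element core TGACNNNGC was found in the promoter window of 11 of 34 NRF2 targets with a window, of 6 of the 20 called lower and of 14% of all genes of the table. It is shown in capitals for the member with the smallest adjusted p in each direction that held it, Gclm (lower) and G6pdx (higher), where it lies on the strand opposite to the gene and so reads as its reverse complement, GCNNNGTCA.
Gclm (chr3:122245307-122245556, plus strand): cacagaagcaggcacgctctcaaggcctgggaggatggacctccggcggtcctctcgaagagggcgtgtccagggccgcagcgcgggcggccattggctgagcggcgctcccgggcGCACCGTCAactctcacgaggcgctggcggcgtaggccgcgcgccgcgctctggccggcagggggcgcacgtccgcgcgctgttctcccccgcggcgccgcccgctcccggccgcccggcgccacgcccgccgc
G6pdx (chrX:74428881-74429130, minus strand): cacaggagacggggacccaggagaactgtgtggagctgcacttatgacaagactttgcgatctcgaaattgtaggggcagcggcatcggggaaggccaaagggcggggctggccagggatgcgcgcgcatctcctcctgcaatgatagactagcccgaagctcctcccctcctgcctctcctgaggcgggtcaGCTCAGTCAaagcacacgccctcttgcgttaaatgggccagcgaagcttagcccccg

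Stress responses were split between amino acid and protein folding genes. Of 30 targets of ATF4, the factor of the integrated stress response, 16 rose and 4 fell (median 0.84; 23 rose and 2 fell with total counts alone). Nupr1 (ENSMUSG00000030717, chr7:126623249-126630861, minus strand), a small stress-induced chromatin protein, stood at 1.91, 2.25, 3.11 and 3.57 CPM in Atg5 KO and 393, 215, 264 and 442 in DKO (6.92 ± 0.42, edgeR adjusted p = 6.96e-11). Every DKO library was far above every Atg5 KO library. The serine synthesis enzymes Phgdh and Psat1 rose together. Phgdh stood at 1.37, 0.988, 0.557 and 0.243 and 45.8, 42.5, 48.7 and 33.0 CPM (5.73 ± 0.44, edgeR adjusted p = 6.17e-10), and Psat1 went from 2.68 ± 0.959 in Atg5 KO to 35.4 ± 7.39 CPM in DKO (3.71 ± 0.31, edgeR adjusted p = 1.69e-09). Pck2, the mitochondrial carboxykinase, rose from 8.64 ± 1.69 in Atg5 KO to 37.1 ± 5.49 CPM in DKO (2.1005 ± 0.17). The list members that fell with the smallest p were Shmt2, which splits serine in mitochondria, from 223 ± 24.4 in Atg5 KO to 57.7 ± 6.80 CPM in DKO (-1.95 ± 0.15) and Aars, an alanyl-tRNA synthetase, from 265 ± 22.7 in Atg5 KO to 118 ± 15.9 CPM in DKO (-1.16 ± 0.15). Atf4 itself did not pass (-0.03 ± 0.16, edgeR adjusted p = 0.879), except upward with total counts alone (0.61). Where Atg5 was present (TSC1 KO against WT), 9 rose and 2 fell, and the difference passed upward for 12, Nupr1 (2.97 ± 0.62), Phgdh (3.42 ± 1.06) and Psat1 (2.33 ± 0.53) among them, and downward for 3.

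Chaperones of the endoplasmic reticulum fell. Of 24 tested 23 were lower and 0 higher (median -1.35), with 14 lower and 1 higher with total counts alone. Hspa5, the chaperone BiP, stood at 1046, 1468, 1123 and 651 CPM in Atg5 KO and 271, 339, 252 and 266 in DKO (-1.93 ± 0.27, edgeR adjusted p = 2.01e-06). The groups did not overlap. Calr fell from 1093 ± 197 in Atg5 KO to 312 ± 44.1 CPM in DKO (-1.81 ± 0.19), Pdia4 from 282 ± 77.8 in Atg5 KO to 73.5 ± 7.28 CPM in DKO (-1.94 ± 0.18) and Sdf2l1 from 38.6 ± 8.87 in Atg5 KO to 7.08 ± 1.70 CPM in DKO (-2.45 ± 0.26), while Herpud1 did not pass (0.55 ± 0.30, edgeR adjusted p = 0.123) but did upward with total counts alone. The list was also lower in TSC1 KO against WT, with 19 lower and 0 higher (median -0.93), and the difference passed for 6 downward and 1 upward.

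Targets of p53 and genes of apoptosis gave 18 higher and 4 lower of 27 (median 1.03; 23 rose and 2 fell with total counts alone). Zmat3 and Phlda3, both direct p53 targets, rose from 15.003 ± 5.06 in Atg5 KO to 65.4 ± 9.87 CPM in DKO (2.12 ± 0.23, edgeR adjusted p = 7.07e-08) and from 6.35 ± 2.79 in Atg5 KO to 28.6 ± 5.11 CPM in DKO (2.16 ± 0.30, edgeR adjusted p = 2.48e-06), and Ccng1 from 68.4 ± 10.7 in Atg5 KO to 123 ± 9.92 CPM in DKO (0.85 ± 0.14). Among the members that fell was the death receptor Fas, from 29.6 ± 3.62 in Atg5 KO to 8.12 ± 0.969 CPM in DKO (-1.87 ± 0.14, edgeR adjusted p = 5.42e-10). For TSC1 KO against WT, 7 rose and 2 fell.

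Cell cycle genes gave 9 higher and 2 lower of 37 (median 0.43), both below the shares of all genes (29.2% and 27.3%). With total counts alone 23 were higher and 0 lower, where 57.8% of all genes were higher. The count higher was 4 without Atg5 KO library 2, 5 without DKO library 3 and 6 with DKO libraries 3 and 4 alone, and the count lower was 0 without Atg5 KO library 3 or DKO library 4. Cdk4 stood at 45.1, 47.2, 44.6 and 48.0 CPM in Atg5 KO and 108, 103, 131 and 94.7 in DKO (1.24 ± 0.12, edgeR adjusted p = 1.71e-08). The groups did not overlap. Ccnd2, a D-type cyclin, rose from 24.6 ± 4.71 in Atg5 KO to 83.6 ± 23.9 CPM in DKO (1.76 ± 0.25, edgeR adjusted p = 2.74e-06), whereas Ccnd1 and Pcna did not pass (0.55 ± 0.28 and 0.16 ± 0.15), although both did upward with total counts alone (1.165 and 0.785), and Ccnd1 also without DKO library 4.

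Growth factor receptors moved apart. Of 28 genes of the EGFR, MET and Notch pathways 16 rose and 3 fell. Egfr, the main receptor of this family on hepatocytes, stood at 288, 425, 274 and 411 CPM in Atg5 KO and 51.1, 49.9, 41.9 and 88.0 in DKO (-2.60 ± 0.51, edgeR adjusted p = 1.66e-04). Erbb2, a relative of the epithelium, rose from 2.73 ± 0.996 in Atg5 KO to 31.4 ± 7.82 CPM in DKO (3.51 ± 0.35, edgeR adjusted p = 1.81e-08), and Erbb3 and Met did not pass, except upward with total counts alone (0.39 and 0.62). Egfr was thus lower in all 4 DKO libraries and Erbb2 higher. The Notch ligand Jag1 rose from 13.99 ± 4.49 in Atg5 KO to 66.8 ± 19.2 CPM in DKO (2.25 ± 0.27), and St14 and Spint1, a membrane protease and its inhibitor in epithelia, from 9.56 ± 3.74 in Atg5 KO to 90.1 ± 11.9 CPM in DKO (3.23 ± 0.27) and from 5.97 ± 1.89 in Atg5 KO to 66.8 ± 6.33 CPM in DKO (3.48 ± 0.28). Hgfac, the hepatocyte protease that activates the MET ligand, fell from 176 ± 18.5 in Atg5 KO to 17.3 ± 6.03 CPM in DKO (-3.35 ± 0.22). Cytosolic ribosomal proteins, which set the capacity for translation, gave 4 higher and 4 lower of 36, below the background in both directions, but 32 higher and 0 lower on unscaled totals. Leaving out DKO library 1 made the count of ribosomal genes higher 2.

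Genes of stellate cells and fibrosis gave 25 higher and 3 lower of 44 (median 0.96). Tgfb2, the growth factor, stood at 10.5, 5.12, 6.93 and 6.57 CPM in Atg5 KO and 73.8, 68.2, 86.7 and 75.4 in DKO (3.38 ± 0.31, edgeR adjusted p = 6.87e-09). All DKO libraries were higher. The matrix protease Mmp14 rose from 36.8 ± 3.35 in Atg5 KO to 137 ± 20.8 CPM in DKO (1.90 ± 0.19), Timp2, a protease inhibitor, from 47.1 ± 12.8 in Atg5 KO to 256 ± 36.5 CPM in DKO (2.44 ± 0.31) and Pdgfa, a stellate cell mitogen, from 21.6 ± 5.11 in Atg5 KO to 63.8 ± 14.2 CPM in DKO (1.56 ± 0.21). Lrat and Reln, genes of quiescent stellate cells, fell from 19.4 ± 4.69 in Atg5 KO to 5.28 ± 0.776 CPM in DKO (-1.88 ± 0.34) and from 58.4 ± 14.2 in Atg5 KO to 14.9 ± 9.88 CPM in DKO (-1.98 ± 0.39). In TSC1 KO against WT 3 of the list rose and 3 fell, and the difference passed upward for 13 and downward for 4.

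Markers of resident Kupffer cells, the liver's macrophages, fell while several genes shared by all macrophages did not. Of 20 tested 11 fell and 1 rose (median -1.30), and 0 rose without Atg5 KO library 2, without DKO library 1 or with DKO libraries 3 and 4 alone. Clec4f, the lectin that defines these cells, stood at 94.8, 35.9, 139.8 and 96.8 CPM in Atg5 KO and 6.63, 13.1, 1.04 and 2.91 in DKO (-3.97 ± 0.60, edgeR adjusted p = 1.19e-05), and Cd5l went from 80.9 ± 40.6 in Atg5 KO to 6.99 ± 5.74 CPM in DKO (-3.54 ± 0.57, edgeR adjusted p = 2.31e-05). Neither gene overlapped between groups. C1qa and C1qb, complement genes of macrophages in general, did not pass (-0.09 ± 0.29 and 0.07 ± 0.26). The list contains genes of other cells too, such as Nr1h3 and C6, which hepatocytes make. Where Atg5 was present (TSC1 KO against WT), 14 fell and 1 rose, with Clec4f at -1.99 ± 0.55. Of 21 genes of recruited macrophages 8 rose and 3 fell, but Spp1 and Cd63 are not made by macrophages alone, and Lyz2 did not pass (0.11 ± 0.25, edgeR adjusted p = 0.743) but did upward with total counts alone (0.70), where 14 rose and 2 fell. Lymphocyte genes gave 2 higher and 3 lower of 23, and neutrophil genes 2 and 1 of 12. All these shares were below those of all genes, 29.2% and 27.3%. Jchain was higher (2.96 ± 0.57, edgeR adjusted p = 1.77e-04) and Ighm lower (-2.76 ± 0.58, edgeR adjusted p = 4.57e-04). Ighm stood at 70.7, 8.63, 91.6 and 64.9 CPM in Atg5 KO and 8.63, 9.61, 10.4 and 6.22 in DKO, with overlap at Atg5 KO library 2. Scaled by total counts alone, 8 lymphocyte genes were higher and 2 lower, and 5 and 0 neutrophil genes. The neutrophil count higher was 0 without Atg5 KO library 2 or with DKO libraries 3 and 4 alone, 1 without DKO library 2 and 4 without Atg5 KO library 4, and the count lower was 0 without Atg5 KO library 3.

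Interferon-stimulated genes fell. Of 30 tested 16 were lower and 1 higher (median -0.71), and with total counts alone 10 and 5. Without Atg5 KO library 4, 2 were higher. Rsad2, the antiviral enzyme viperin, stood at 696, 232, 1082 and 699 CPM in Atg5 KO, 95.0, 59.5, 46.3 and 102 in DKO and 11.1, 12.01, 11.2 and 3.78 in WT (-3.16 ± 0.40, edgeR adjusted p = 8.94e-07 for DKO against Atg5 KO). The DKO libraries were all below the Atg5 KO libraries and all above the WT libraries. Oasl1 went from 406 ± 192 in Atg5 KO to 33.7 ± 10.5 CPM in DKO (-3.59 ± 0.38, edgeR adjusted p = 1.05e-07) and the chemokine Cxcl10 from 95.5 ± 46.2 in Atg5 KO to 7.51 ± 3.15 CPM in DKO (-3.66 ± 0.43, edgeR adjusted p = 3.59e-07). Ifit2 rose from 33.8 ± 17.996 in Atg5 KO to 84.1 ± 25.8 CPM in DKO (1.32 ± 0.38, edgeR adjusted p = 0.00579). For TSC1 KO against WT, 4 fell and 1 rose, and the difference passed downward for 11 and upward for 0. Acute-phase genes, which hepatocytes make in inflammation, gave 18 lower and 2 higher of 28 (median -2.02; 4 were higher with total counts alone) and 22 lower and 0 higher in TSC1 KO. The fibrinogen gene Fgb fell from 4395 ± 1163 in Atg5 KO to 864 ± 41.5 CPM in DKO (-2.35 ± 0.36, edgeR adjusted p = 6.43e-06), and Il1rn, the interleukin 1 antagonist, rose from 12.2 ± 4.91 in Atg5 KO to 123 ± 29.9 CPM in DKO (3.33 ± 0.40, edgeR adjusted p = 5.95e-07). Of 29 chemokine and cytokine genes 8 rose and 6 fell, both below the shares of all genes (29.2% and 27.3%). Without Atg5 KO library 2 or DKO library 2 the count higher was 4 or 5, and with DKO libraries 3 and 4 alone it was 5. When scaled by total counts alone, 11 rose and 4 fell, and the median turned from -0.10 to 0.51. Of 16 MHC genes 0 rose and 2 fell, 5 fell without Atg5 KO library 2, and with total counts alone 9 rose and 0 fell, where the median went from 0.04 to 0.64. H2-K1, a classical class I gene, did not pass (0.07 ± 0.14, edgeR adjusted p = 0.711) but did upward with total counts alone (0.68).

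Endothelial genes gave 8 higher and 7 lower of 25, both near the shares of all genes (29.2% and 27.3%). With total counts alone 11 were higher and 2 lower, and the median turned from -0.05 to 0.58. Vwf, of large vessels, rose from 5.16 ± 2.75 in Atg5 KO to 25.0 ± 4.64 CPM in DKO (2.28 ± 0.38, edgeR adjusted p = 2.16e-05), and Bmp6, the sinusoidal signal that sets hepcidin, from 12.5 ± 1.79 in Atg5 KO to 56.5 ± 14.3 CPM in DKO (2.18 ± 0.24). Clec4g, of the sinusoid, fell from 25.4 ± 2.35 in Atg5 KO to 6.79 ± 2.64 CPM in DKO (-1.90 ± 0.31). Without Atg5 KO library 3 the count higher was 5. Of 19 iron and metal genes 9 fell and 2 rose, with a median of -0.30 that turned to 0.31 with total counts alone, where 5 fell and 4 rose. Without Atg5 KO library 1, DKO library 1 or DKO library 2, or with DKO libraries 3 and 4 alone, 1 rose. Tfr2, the iron sensor of hepatocytes, fell from 376 ± 62.9 in Atg5 KO to 104 ± 12.8 CPM in DKO (-1.85 ± 0.17, edgeR adjusted p = 7.70e-09), and Slc30a10, a manganese exporter, from 39.3 ± 19.6 in Atg5 KO to 1.05 ± 0.348 CPM in DKO (-5.20 ± 0.57, edgeR adjusted p = 1.71e-07). Genes of other tissues were summed over each list, as CPM on the same scale. Intestinal epithelium genes (12 matched, 5 tested) ran from 120.5 to 157.4 in Atg5 KO and 33.9 to 64.0 in DKO, and the groups did not overlap. Chosen after these sums were seen, Fabp2 and Tff3 stood at 59.6 ± 11.8 and 66.5 ± 20.7 CPM in Atg5 KO and 7.43 ± 4.81 and 22.6 ± 7.21 in DKO (SD, n = 4). Pancreatic acinar genes ran from 14.9 to 27.1 and 3.41 to 8.17, also with no overlap, and 2 of the 9 matched were at 0 in all 8 libraries. Skeletal muscle genes ran from 1.38 to 2.59 and 1.93 to 3.14, adipocyte and mesothelial genes from 4.21 to 14.01 and 6.90 to 15.2, and red cell genes from 177 to 527 and 78.1 to 468, with overlap in each. The part of these genes in the results was not tested.

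The largest increases among single genes were from near absence. Myo16, an unconventional myosin, held 0 counts over the 4 Atg5 KO libraries and 429 over the 4 DKO libraries, at least 95.5-fold higher. Myom2, a muscle sarcomere protein, held 1 and 657 counts, a ratio of 439 with a 95% counting interval of 78.5 to 17351. Such intervals cover counting error only. Bex2, an X-linked gene related to Bex1, went from 0.120 ± 0.105 in Atg5 KO to 29.8 ± 7.49 CPM in DKO (7.82 ± 0.82, edgeR adjusted p = 6.94e-08), and Rnase1, a secreted ribonuclease, from 0.181 ± 0.212 in Atg5 KO to 33.4 ± 17.3 CPM in DKO (7.43 ± 0.79, edgeR adjusted p = 2.83e-07). By a rule set after these values were seen, 16 genes were under 0.5 CPM in every Atg5 KO library and at least 5 CPM in every DKO library. Of the 16, 14 averaged under 0.5 CPM in TSC1 KO and 15 in WT. They included Wnt7a, a Wnt ligand (0.259 ± 0.127 in Atg5 KO to 13.3 ± 2.16 CPM in DKO), Arnt2, a bHLH-PAS factor of the nervous system (0.239 ± 0.106 in Atg5 KO to 23.4 ± 6.41 CPM in DKO), and Map3k9 (0.287 ± 0.0572 in Atg5 KO to 9.33 ± 3.28 CPM in DKO).

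Among the largest decreases, the genes named here fell to low levels in DKO. Elovl3, a fatty acid elongase, stood at 143, 562, 115 and 20.7 CPM in Atg5 KO and 1.14, 0.118, 0.261 and 0.100 in DKO (-9.01 ± 1.62, edgeR adjusted p = 9.47e-05). No library overlapped. Ces3a, a carboxylesterase, went from 1413 ± 315 in Atg5 KO to 3.71 ± 4.48 CPM in DKO (-8.57 ± 0.80, edgeR adjusted p = 1.81e-08), and Hsd3b5, a male-biased steroid dehydrogenase, from 90.4 ± 20.99 in Atg5 KO to 0.235 ± 0.233 CPM in DKO (-8.55 ± 1.29, edgeR adjusted p = 1.43e-05). Slc22a7, an organic anion transporter, held 587 counts over the Atg5 KO libraries and 2 over DKO, a ratio of 439.6 (121 to 3639). By the mirror of the rule above, 5 genes were at least 5 CPM in every Atg5 KO and under 0.5 CPM in every DKO library, Slc22a7 among them, and 4 of the 5 averaged at least 5 CPM in TSC1 KO and all 5 in WT.

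**Figure D4:**
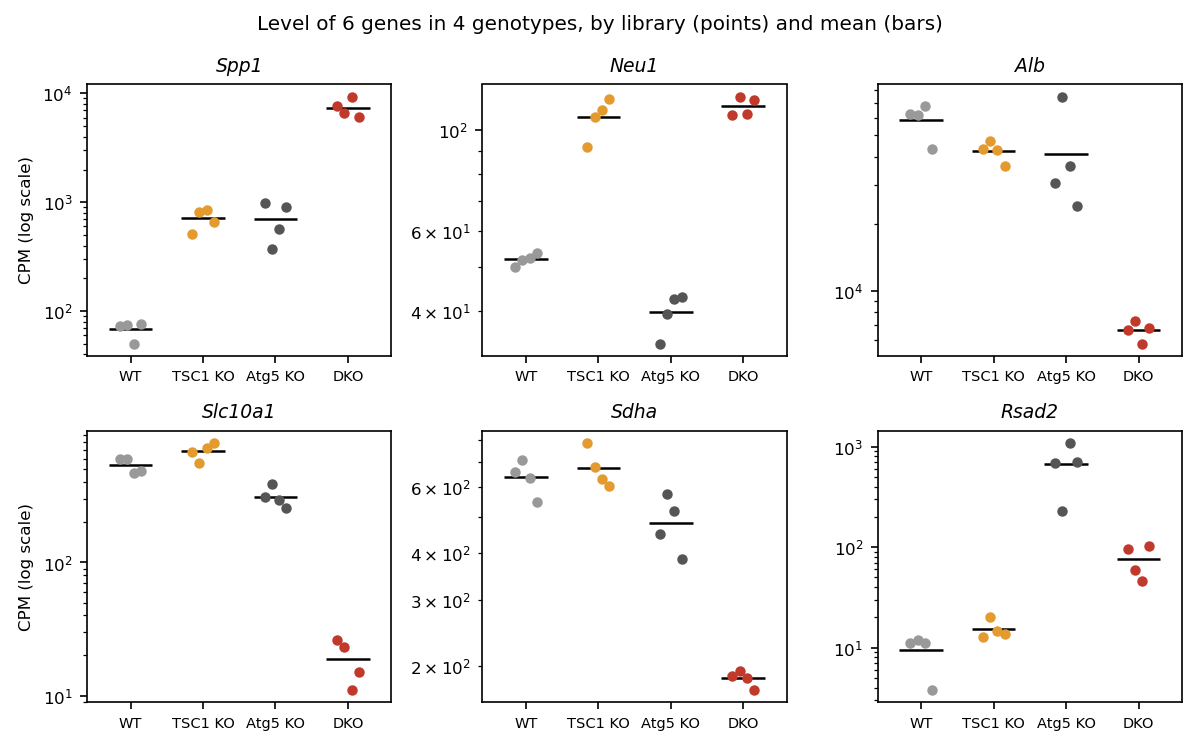
Level of 6 genes (CPM, log scale) in the libraries labelled WT, TSC1 KO, Atg5 KO and DKO, 4 points per genotype with bars at the means. Spp1 and Neu1 rose with the loss of Tsc1 in both comparisons; Alb, Slc10a1 and Sdha fell in DKO against Atg5 KO and did not pass in TSC1 KO against WT; Rsad2 had its highest mean of these genotypes in Atg5 KO.

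The difference between the effects of Tsc1 loss was also read gene by gene, at the largest values in each direction. Upward, Lcn2 (7.04 ± 1.79, edgeR adjusted p = 0.00473) was among the largest. Lcn2, the iron-binding acute-phase protein lipocalin 2, stood at 82.9, 15.5, 114 and 755 CPM in Atg5 KO, 334, 343, 381 and 359 in DKO, 469, 289.9, 21.1 and 2844 in WT and 5.90, 9.67, 8.21 and 16.5 in TSC1 KO. It fell in TSC1 KO against WT and did not pass in DKO against Atg5 KO, where 1 Atg5 KO library stood above every DKO library and the other 3 far below. Downward, Ces3a (-8.02 ± 0.92, edgeR adjusted p = 1.51e-06) and Elovl3 (-7.59 ± 1.86, edgeR adjusted p = 0.00371) were among the largest. Mup20 gave -7.08 ± 0.94, edgeR adjusted p = 6.98e-06. Elovl3 changed by -1.42 ± 1.06, edgeR adjusted p = 0.388 in TSC1 KO against WT. Of the 4627 genes that rose in DKO against Atg5 KO, 2107 also passed the difference upward, and of the 4322 that fell, 2737 passed it downward.

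**Figure D5:**
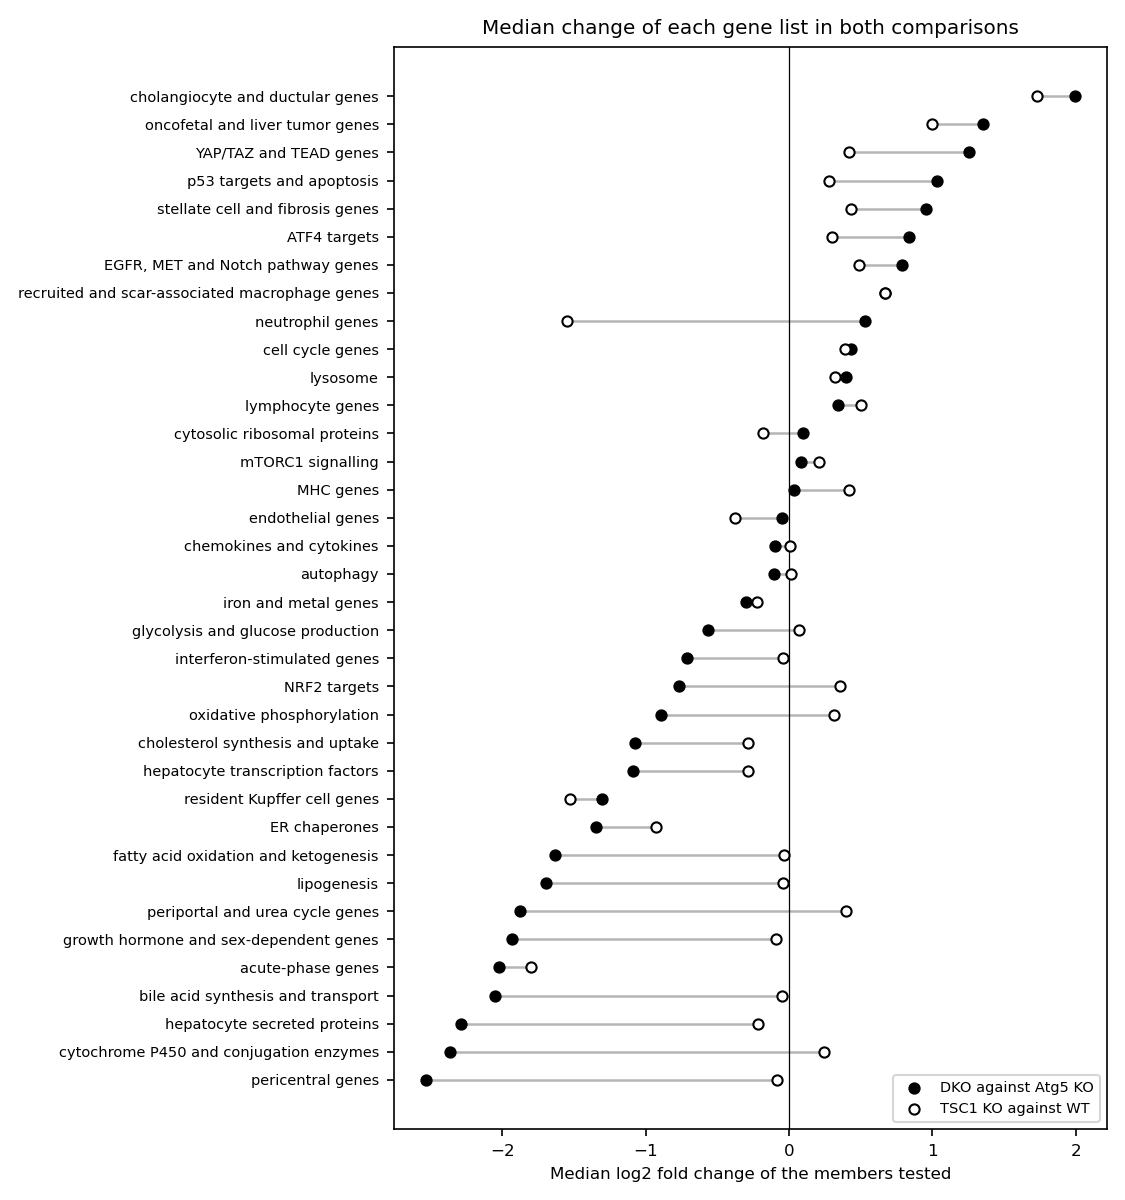
Median log2 fold change of each gene list in DKO against Atg5 KO (filled points) and in TSC1 KO against WT (open points), with a line joining both values of a list. The ductular list stood at 1.99 and 1.73, the hepatocyte secreted list at -2.29 and -0.22, and the oxidative phosphorylation list at -0.89 and 0.31.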

How the data were processed

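The series holds 24 libraries of polyadenylated RNA from mouse liver, 4 per genotype and 6 genotypes. The deposited values are raw counts per gene that the authors made from trimmed and aligned reads, with Trimmomatic 0.36, HISAT2 2.1.0, HTSeq and the GRCm38 build named in the submitters' processing notes. For HTSeq the version, the strand setting and the annotation release were not given in the sources used here. Reads of overlapping and antisense genes may not be separable. Of 33019 gene identifiers, 32938 had a symbol in GENCODE M21 and 81 did not. Total counts ran from 10494080 to 13057467 per library.

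Groups follow the labelled genotype. Counts of all 24 libraries were fitted together in edgeR 4.0.16 (R 4.3.3, limma 3.58.1) with TMM scaling and edgeR's default filter on low counts, which kept 15851 genes and left 18 residual degrees of freedom. The robust quasi-likelihood test gave p-values, adjusted by the Benjamini-Hochberg method over all genes tested, and genes under 0.05 were called. Each contrast was DKO against Atg5 KO, TSC1 KO against WT, the difference of these, or, for side values, Atg5 KO against WT. SE is the absolute log2 fold change over the square root of the F statistic. Tables were made with pandas 2.3.3 and numpy 2.4.6 on Python 3.11.15, intervals with scipy 1.17.1 and figures with matplotlib 3.10.9.

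The groups compared and the 41 gene lists were chosen with earlier results of these data known, and lists are described by counts and medians with no test of their own. Genes named from a list were up to 5 with the smallest adjusted p, up to 3 with the highest mean CPM, up to 3 called against the direction of most called members and up to 2 that did not pass. To these were added Atg5, Tsc1, Sqstm1 and Nfe2l2, the 12 largest changes in each direction among called genes whose libraries did not overlap and whose higher group averaged 5 CPM or more, and the 6 largest differences in each direction, passing over symbols that start Gm plus digits or end Rik. Not every gene the rule allows is named, and names chosen otherwise are said to be so. For genes with at most 3 counts over a group, a ratio of summed counts with a 95% counting interval, or a bound at 3 counts, replaces the fitted value. Promoter sequences are from RefSeq.

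The fit was tested on simulated counts with 50 genes changed at each of 1.5-, 2-, 4- and 8-fold and 15062 unchanged. It called 26%, 60%, 94% and 98% of the changed genes in the right direction, and 10 unchanged genes. Few genes were changed there, in random directions, whereas 56.5% passed in the data. The simulation therefore cannot test the scaling. Its rates of calling do not carry over to this comparison, because the adjusted threshold depends on how many genes change. Alternatives were DESeq2 1.42.0, its size factors, total counts alone, no filter, a fit restricted to the compared libraries, a block for replicate number, and each library left out in turn. The use of DKO libraries 3 and 4 alone, and a fit without 1 Nrf2 TKO library whose Xist count of 14173 stood apart, were added after the data were seen.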

Additional observations from a re-analysis of the deposited data

Results flagged for a closer look

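In 18 of 320 combinations of a named gene and a group, 1 library stood apart from the other 3, by Dixon's test of its gap to the nearest library at the 95% level. Chance flags about 1 in 20 groups. In Atg5 KO there were 10 such cases. Library 1 was high for Ankrd1 (12.96 CPM) and Jchain (18.3 CPM). Library 2 was high for Atg3 (100.5 CPM), Erbb3 (204 CPM), Robo1 (29.7 CPM) and Tsc1 (45.6 CPM), and low for Psat1 (1.26 CPM). Library 3 was high for Pcna (64.5 CPM), and library 4 for Lcn2 (755 CPM) and Myom2 (0.0811 CPM, 1 count). In DKO there were 8. Library 1 was low for Ankrd1 (112 CPM) and high for Ces3a (10.4 CPM), Elovl3 (1.14 CPM) and Tfr2 (123 CPM). Library 2 was low for Slc30a10 (0.531 CPM), library 3 high for Sox4 (102 CPM), and library 4 high for Nfe2l2 (162 CPM) and Ppargc1a (28.4 CPM).

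The change with the loss of Tsc1 differed without and with Atg5 for 5517 genes by the test of the difference itself. Among genes named for it, the difference was 7.04 for Lcn2, -7.59 for Elovl3 and -8.02 for Ces3a on the log2 scale.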

How the results depend on the processing

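The direction of the main counts depended on scaling. With total counts alone, which set the median change to 0.67, 9156 genes were higher and 1955 lower in DKO against Atg5 KO, 628 were lower in TSC1 KO against WT, and the difference passed upward for 5620 and downward for 1684. Without a filter 695 genes were lower in TSC1 KO against WT. In DKO against Atg5 KO, DESeq2 called 9126 genes, DESeq2 size factors gave 8945, no filter 8885 and only the groups compared 8501. Leaving out 1 library gave 8322 to 8747 genes called in DKO against Atg5 KO (3993 to 4468 higher and 4044 to 4470 lower), 1724 to 2272 in TSC1 KO against WT (956 to 1354 and 647 to 1121), and 4888 to 5500 for the difference (1864 to 2368 and 2813 to 3268). Of 161 genes with a test in the text, 130 kept direction and call under every alternative and 148 under all but total counts. With total counts alone the changes that turned direction were Atf4 (0.61), Erbb3 (0.39), Gaa (0.23), Lamp1 (0.37), Met (0.62), Mtor (0.0437), Nfe2l2 (0.62), Rps6kb1 (0.12) and Yap1 (0.34).

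Replicate numbers did not pair the libraries: deviations of same-numbered Atg5 KO and DKO libraries correlated at -0.05, -0.13, -0.02 and -0.06. With the replicate number as a block 7685 genes passed in DKO against Atg5 KO, 3957 higher and 3728 lower, 2439 in TSC1 KO against WT and 5485 for the difference. The block left 3 chemokine and cytokine genes, 5 cell cycle genes and 2 ribosomal genes higher, and 7 of the 161 genes lost their call. At this depth and number of libraries, a gene that did not pass may still differ.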
